A study of Mus musculus with 36 samples.

Results

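The Hox genes of the mouse lie in 4 clusters, and 38 of them were examined here: 10 in HoxA on chromosome 6, 10 in HoxB on chromosome 11, 9 in HoxC on chromosome 15 and 9 in HoxD on chromosome 2. A gene was taken by name, and its window was the GENCODE gene body with 2 kb on each side (mouse build mm10). The measure was the 5-methylcytosine (5mC) level, the percentage of reads of a window that stayed methylated after oxidative bisulfite conversion, which reads 5-hydroxymethylcytosine as unmethylated. All 38 windows could be tested among 15491 windows of autosomal protein-coding genes that held 5 or more CpGs with 5 or more reads in each of 35 embryos.

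Hox genes encode homeodomain transcription factors that give cells their position along the head-to-tail axis, and their order in a cluster follows the order of their expression domains. Paralog groups at the anterior end of the series act in the hindbrain, central groups in the neck and trunk, and posterior groups in the lower trunk, limbs and genitalia. In the embryonic forebrain and midbrain the clusters are kept silent by Polycomb proteins and their CpG-rich DNA is typically unmethylated. TET1 is a dioxygenase that oxidises 5mC, the initial step of active demethylation, and is known to bind CpG-rich promoters.

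Single brains at E11.5 were profiled from litters of Tet1 heterozygous dams on the 129S6.Cg background carrying the Tet1 tm1Koh allele, a targeted insertion at the start codon. Embryos were Tet1 wild type (WT), heterozygous (HET) or homozygous mutant (KO), and dams ate diets with folic acid (FA) in excess (30 ppm), at the control level (3 ppm) or depleted (0.1 ppm). The compared embryos on 30, 3 and 0.1 ppm numbered 3, 4 and 2 WT, 5, 3 and 2 HET, and 6, 5 and 5 KO, from 4 litters in each diet. All diets contained succinyl sulfathiazole, an antibiotic that limits folate made by gut bacteria. Every embryo thus shared a heterozygous mother and the antibiotic. Males and females were included. Titles give phenotypes as normal, neural tube defect or inHB, which the supplement lists as brain malformation. Embryos labelled inHB occur in all genotypes, among them WT replicate 2 of 0.1 ppm. The tissue ran from the forebrain to the hindbrain above the otic vesicle. A level thus averages cells that express anterior Hox genes and cells that express none. A change in the share of a cell type cannot be told apart from a change within cells. Transcripts were not measured in these libraries.

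The 36 libraries had a mean coverage of 10.9 to 61.5 reads per CpG, and the shallowest HET library of 0.1 ppm was left out. Labels were checked at the CpG of Tet1 with the largest KO minus WT difference on 3 ppm (chromosome 10, position 62884019). It read 0 to 7.32% in 7 libraries labelled WT, 8.33 to 69.2% in the 10 HET libraries and 69.6 to 100% in 15 labelled KO. The library labelled KO replicate 1 of 30 ppm read 45.0% of 20 reads (95% Wilson interval 25.8 to 65.8%). The sample list in the supplement of the study gives this embryo as HET, while its title in the deposited labels, followed here, gives KO. Of those labelled WT, replicate 2 of 30 ppm read 36.36% of 33 reads (22.2 to 53.4%) and replicate 2 of 0.1 ppm 40.0% of 15 reads (19.8 to 64.3%). These intervals cover counting error only. The supplement lists these WT-labelled embryos as WT, as their labels do. A WT library was taken to go against its label where its whole interval lay above the WT values on 3 ppm, and a KO library where it lay below the KO values on 3 ppm. The HET libraries were not judged, and those on 3 ppm set the ranges and could not be checked in this way. The 3 libraries were kept under their labels, and the main counts and the 30 ppm values are also given without them. The rule can leave out only WT libraries that read high and KO libraries that read low. Results without the 3 libraries can therefore lean toward a wider KO minus WT difference.

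The reads covered 2571 of the 10124 CpGs in the Hox windows in all 35 embryos (25.4%), from 18 to 318 per window with a median of 72. Neighbouring windows often overlap, since several gene models are long: the Hoxc5 window touched 5 other members and the Hoxa3 window 4. The windows are therefore not independent of each other. The 3 stretches printed here carry the patterns described below and come from the RefSeq genome (GRCm38.p6) on the strand of the gene, with the CpGs measured in all 35 embryos in capitals. The Hoxa7 stretch (chr6:52220669-52220850, minus strand) is the stretch with the largest KO gain in the clusters, the Hoxd12 stretch (chr2:74674713-74675012, plus strand) lies directly before the start of the gene with the largest window gain, and the Hoxc6 stretch (chr15:102997957-102998256, plus strand) lies before the start of a gene that did not pass the test.
Hoxa7: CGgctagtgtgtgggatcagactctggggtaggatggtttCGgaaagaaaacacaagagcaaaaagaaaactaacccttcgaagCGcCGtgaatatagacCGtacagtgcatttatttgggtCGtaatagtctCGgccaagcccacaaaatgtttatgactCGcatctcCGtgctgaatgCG
Hoxd12: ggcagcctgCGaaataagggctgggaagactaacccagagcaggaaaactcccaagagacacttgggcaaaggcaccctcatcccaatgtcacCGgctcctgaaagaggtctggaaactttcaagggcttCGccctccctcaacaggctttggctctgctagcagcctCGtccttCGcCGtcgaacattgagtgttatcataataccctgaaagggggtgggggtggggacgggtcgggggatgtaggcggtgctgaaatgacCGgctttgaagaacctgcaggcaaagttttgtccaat
Hoxc6: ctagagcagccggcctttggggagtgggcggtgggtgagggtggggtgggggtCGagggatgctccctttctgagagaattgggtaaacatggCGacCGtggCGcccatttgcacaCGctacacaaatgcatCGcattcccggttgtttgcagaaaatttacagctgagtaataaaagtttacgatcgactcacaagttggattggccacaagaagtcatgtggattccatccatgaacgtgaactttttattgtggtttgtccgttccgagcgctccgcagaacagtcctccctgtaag
The 182 bases at Hoxa7 hold 11 CpGs, 10 of them measured, the 300 bases at Hoxd12 hold 11 with 7 measured, and the 300 bases at Hoxc6 hold 16 with 6 measured.

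In WT brains the Hox clusters were nearly free of 5mC. The mean WT level of a member window ran from 0.737% in Hoxb2 to 3.07% in Hoxc10, with a median of 1.13%, against a median of 16.6% over all gene windows. Of the 2571 CpGs, 1509 had a mean WT level under 1% and 2502 (97.3%) one under 5%. Only 4 CpGs reached 20% in WT, and 1 of these reached 50%: a CpG in an intron shared by the Hoxd3 and Hoxd4 gene models (chromosome 2, position 74718931) at 72.9%. CpGs of the mitochondrial genome in the same libraries, as a reference for the level at which reads are called methylated, had a mean of 0.695% ± 0.179 (SD, n = 9) in WT, 0.737% ± 0.0821 (n = 10) in HET and 0.709% ± 0.127 (n = 16) in KO. The lowest Hox windows thus sat at the mitochondrial level, and that level did not separate the genotypes: it ran from 0.493 to 1.09% in WT and from 0.472 to 0.919% in KO.

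The genotype comparison asked whether loss of Tet1 changed 5mC at Hox genes. With all diets in the fit, 28 of the 38 members (73.7%) were higher in KO than in WT and 0 were lower (quasi-binomial test over all 15491 windows, adjusted p below 0.05). Over all windows 31.2% were called higher. In percentage points the members differed less than most windows: the median difference was 0.641 points in the members and 1.61 points over all windows. As a ratio of KO to WT levels the median was 1.55 in the members and 1.10 over all windows. All called members differed by under 5 points, 10 differed by at least 1 point, and 4 by at least 2 points. Without the 3 libraries that went against their labels, 27 members were called, with 40.6% of all windows called. By limma on levels with CpGs and embryos weighted equally, 28 members were called and 65.0% of all windows, so the share of members stood closer to that of all windows than in the quasi-binomial test.

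**Figure D1:**
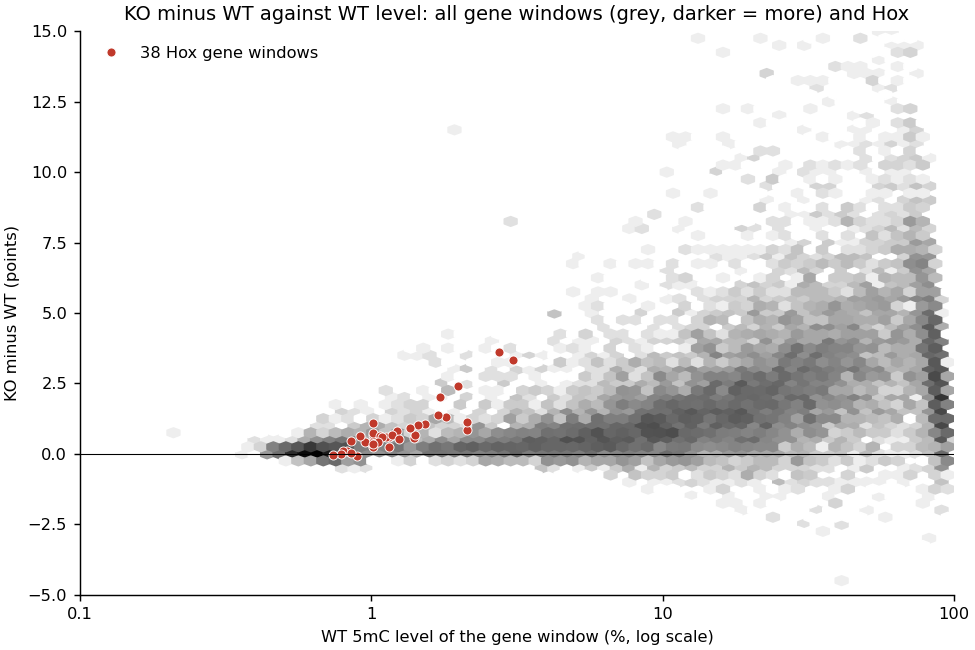
KO minus WT difference in 5mC (points, y axis) against the WT level (percent, log-scaled x axis) for all gene windows (grey hexagons, darker for more windows) and the 38 Hox windows (red points), over all diets. The Hox windows sit at WT levels of about 3% or lower and rise from differences near 0 to 3.62 points, and 269 windows fall outside the axes.

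Calls were spread over the clusters, with 9 of 10 members in HoxA, 9 of 10 in HoxB, 5 of 9 in HoxC and 5 of 9 in HoxD. By position in the series, 8 of 11 members of paralog groups 1 to 4, 9 of 11 of groups 5 to 8 and 11 of 16 of groups 9 to 13 were called. Their median differences were 0.614, 0.684 and 0.487 points, and no difference between these groups was tested.

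**Figure D2:**
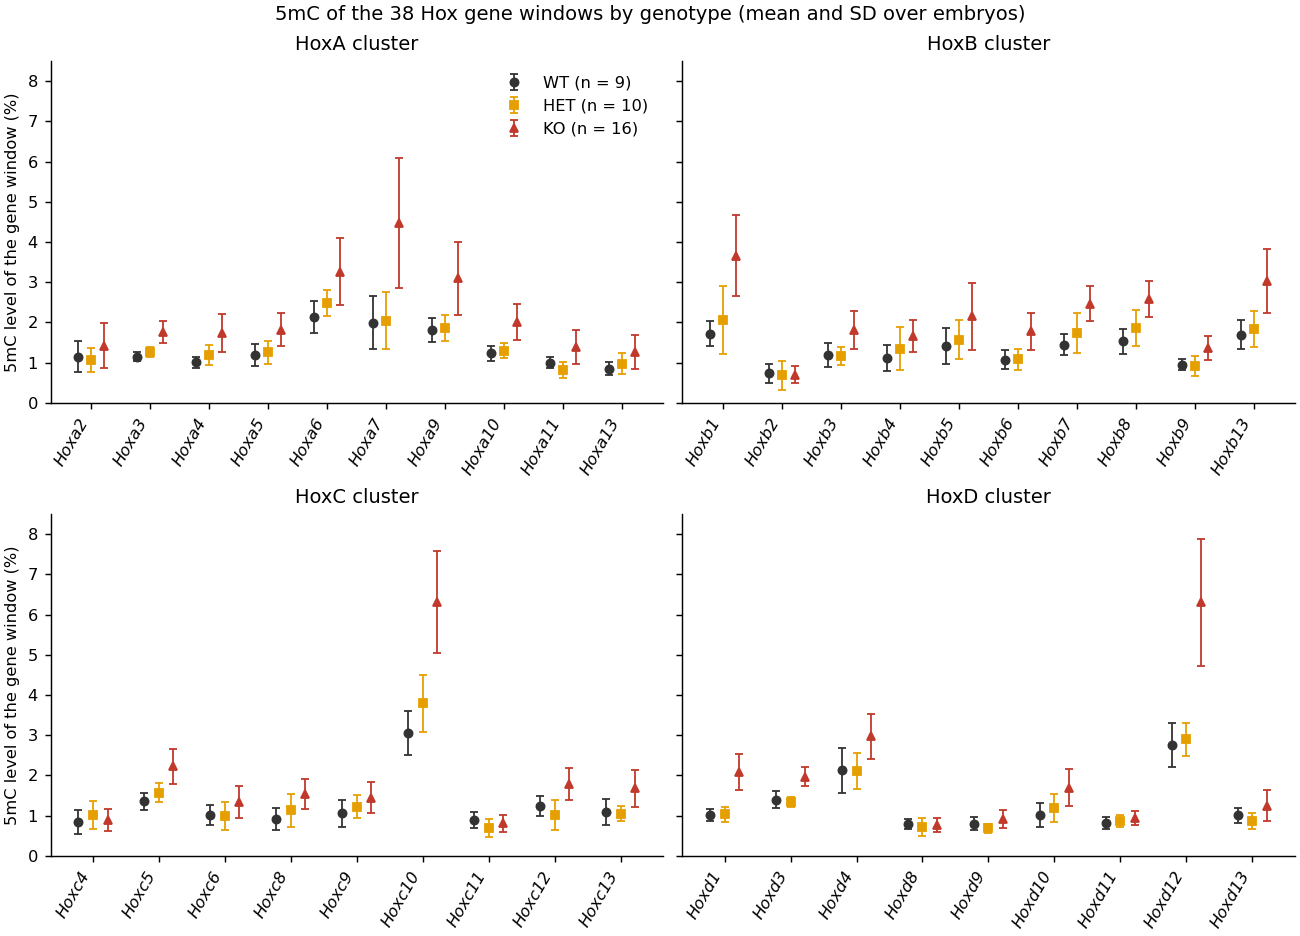
Mean 5mC level (percent) of each Hox gene window in WT (black circles), HET (orange squares) and KO (red triangles), with bars of 1 SD over embryos, in 4 panels for the clusters. KO means stand highest above WT in Hoxa7, Hoxb1, Hoxc10 and Hoxd12, and HET means stay close to WT in most windows.

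Among the posterior members, Hoxd12, which acts in the late limb and genital bud, had the largest gain. Its WT levels were 2.12% at the lowest, 2.75% at the median and 3.86% at the highest of 9 embryos, and its KO levels 2.68, 6.50 and 9.40% over 16. In 15 of 16 KO embryos the level exceeded the WT maximum, the exception being KO replicate 1 of 30 ppm. The mean rose from 2.75% ± 0.545 (SD, n = 9) to 6.30% ± 1.57 (n = 16), and the difference averaged within diets, the measure used for every gene, was 3.62 points (quasi-binomial adjusted p = 1.9e-07). Without the 3 libraries the highest WT level was 3.08% and the lowest KO level 4.34%.

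Hoxc10, which specifies lumbar motor neurons, had the highest level of all members in WT. Its WT levels ran from 2.25% through a median of 3.26% to 3.88%, and its KO levels from 3.46% through 6.14% to 8.32%. The WT maximum was again passed in 15 of 16 KO embryos. The means differed by 3.32 points (quasi-binomial adjusted p = 3.18e-07), and HET embryos had a mean of 3.79% ± 0.713 (SD, n = 10).

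Hoxb13, the gene at the posterior end of HoxB, acts in the tail bud and later in the prostate. It was measured at 1.40, 1.61 and 2.37% (lowest, median and highest WT) and at 1.81, 3.00 and 4.75% in KO, a difference of 1.40 points (quasi-binomial adjusted p = 0.000157). Hoxa9, a trunk gene that also acts in blood progenitors, had 1.39, 1.82 and 2.18% in WT and 1.82, 2.83 and 5.03% in KO. Its difference was 1.30 points (quasi-binomial adjusted p = 0.000214), and in both genes 14 of 16 KO embryos exceeded every WT embryo. Within 1 kb of the Hoxa9 start the difference was 0.432 points and was not called (quasi-binomial adjusted p = 0.368).

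Of the central members, Hoxa7, which patterns the thoracic axis, gained most. WT embryos had 0.840, 2.03 and 3.00% (lowest, median, highest), and KO embryos 1.38, 4.24 and 7.92%. The difference was 2.39 points (quasi-binomial adjusted p = 0.000211), and the WT maximum was passed in 13 of 16 KO embryos, or 15 of 15 once the 3 libraries were left out. At a coverage of at least 10 reads the Hoxa7 difference was 0.945 points, and within 1 kb of its start 1.11 points. Hoxc5, which acts in cervical motor neurons, rose by 0.906 points (quasi-binomial adjusted p = 1.18e-05). Its levels were 1.03, 1.29 and 1.68% in WT and 1.51, 2.21 and 3.11% in KO, but its gene model spans Hoxc10 CpGs as well.

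Of the anterior members, Hoxb1, which gives the fourth hindbrain segment its identity, rose by 2.00 points (quasi-binomial adjusted p = 2.34e-05). Its levels were 1.18, 1.77 and 2.25% in WT and 1.63, 3.66 and 5.37% in KO, and 14 of 16 KO levels passed the WT maximum. Hoxd1, which acts in pain-sensing neurons, had 0.816, 0.984 and 1.30% in WT and 0.911, 2.14 and 2.81% in KO. Its gain of 1.10 points (quasi-binomial adjusted p = 7.69e-07) left only KO replicate 1 of 30 ppm within the WT range.

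The 10 members that did not pass were Hoxa2, Hoxb2, Hoxc4, Hoxc6, Hoxc9, Hoxc11, Hoxd8, Hoxd9, Hoxd11 and Hoxd13. Hoxb2, which acts beside Hoxb1 in the hindbrain, had 0.399, 0.740 and 1.18% in WT and 0.200, 0.743 and 1.05% in KO, a difference of -0.03 points (quasi-binomial adjusted p = 0.72). Hoxd8 lay at 0.581, 0.775 and 0.972% in WT and 0.486, 0.751 and 1.257% in KO (-0.0207 points, adjusted p = 0.933). Hoxc11 lay at 0.460, 0.993 and 1.12% in WT and 0.444, 0.790 and 1.21% in KO (-0.0839 points, adjusted p = 0.545). Hoxa2, which patterns the hindbrain and the second pharyngeal arch, had 0.764, 0.988 and 1.81% in WT against 0.421, 1.29 and 2.46% in KO, a difference of 0.243 points (adjusted p = 0.719). That difference was 0.0262 points without the 3 libraries that went against their labels and 0.0569 points in the gene body alone. In these 4 genes, as in every member with all libraries, the KO and WT embryos overlapped. HoxD thus held both the member with the largest gain, Hoxd12, and Hoxd8 with a difference near 0.

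**Figure D3:**
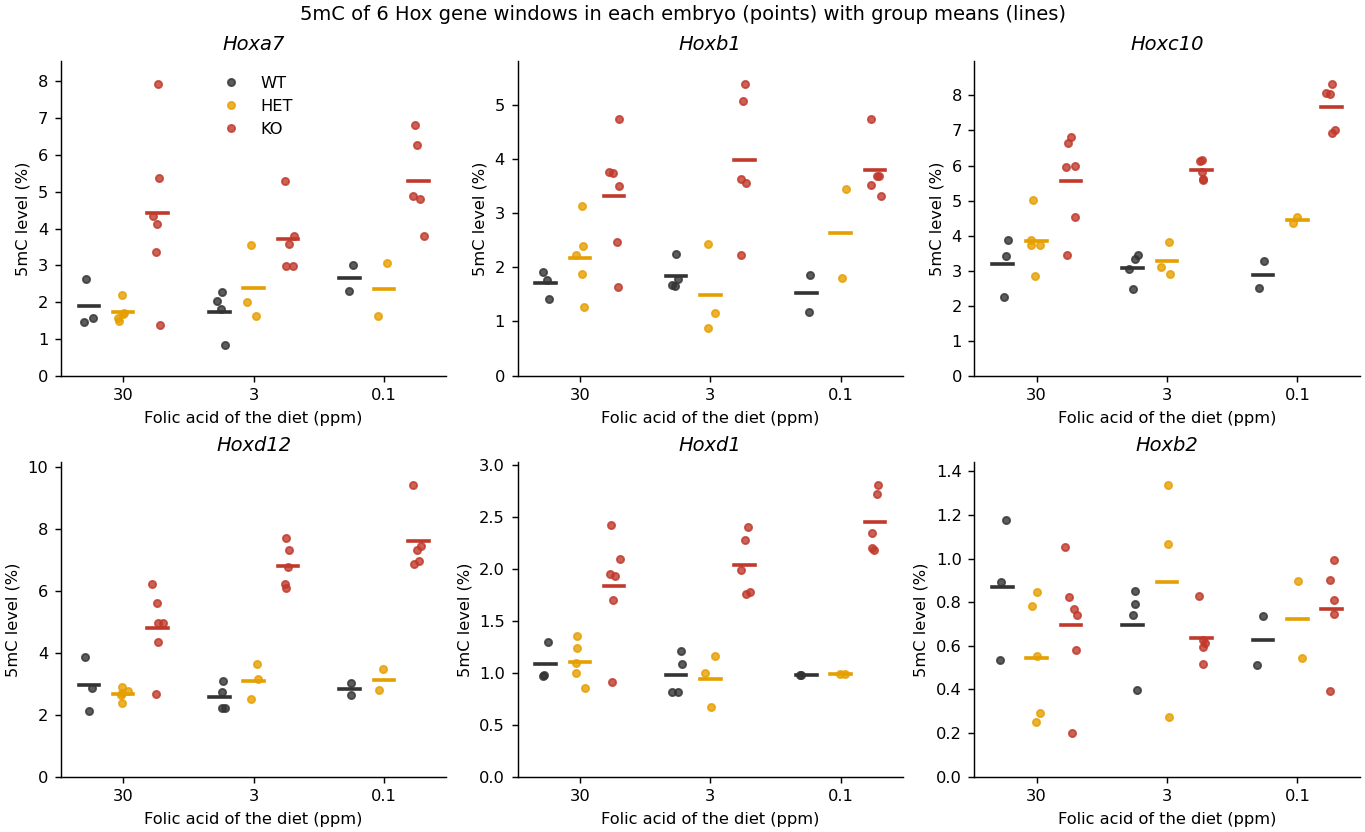
5mC level (percent) of 6 Hox windows in each embryo, by FA diet (x axis) and genotype (black WT, orange HET, red KO), with lines at group means and separate y axes from 0. KO points lie above WT points in Hoxa7, Hoxb1, Hoxc10, Hoxd12 and Hoxd1 except for single low KO embryos, of which KO replicate 1 of 30 ppm is the lowest in each of the 5, and they overlap in Hoxb2.

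With all libraries, 0 members had every KO embryo above every WT embryo, as against 0.839% of all windows. Without the 3 libraries, 11 members did (Hoxa3, Hoxa4, Hoxa7, Hoxb7, Hoxb8, Hoxc5, Hoxc8, Hoxc10, Hoxd1, Hoxd3 and Hoxd12), as against 11.4% of all windows.

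Summed over each cluster, levels were likewise higher in KO, given here as a description. HoxA had a mean of 1.30% ± 0.108 (SD, n = 9) in WT and 2.13% ± 0.434 (n = 16) in KO, a difference of 0.831 points averaged within diets. The difference was 0.683 points in HoxB, 0.642 in HoxC and 0.564 in HoxD. These became 0.869 points in HoxA, 0.726 in HoxB, 0.660 in HoxC and 0.635 in HoxD without the 3 libraries. In HoxA, HoxB and HoxD, 15 of 16 KO embryos exceeded every WT embryo, and in HoxC 13 of 16. HET means were 1.36% ± 0.124 (n = 10) in HoxA, 1.262% ± 0.182 in HoxB, 1.29% ± 0.151 in HoxC and 1.13% ± 0.0649 in HoxD, each within 1 SD of the WT mean. On 0.1 ppm, with 2 WT and 2 HET embryos, HET means lay between WT and KO. The WT embryos there include WT replicate 2, which went against its label. WT, HET and KO had 1.36, 1.48 and 2.40% in HoxA and 1.14, 1.44 and 1.96% in HoxB. They had 1.04, 1.40 and 2.18% in HoxC and 1.14, 1.19 and 1.86% in HoxD. On 30 ppm HET means lay below WT in HoxB, HoxC and HoxD and above it in HoxA (1.35 against 1.32%). WT replicate 2 of 30 ppm, which went against its label, was the highest WT embryo of that diet in each cluster. It read 1.46% in HoxB, 1.54% in HoxC and 1.36% in HoxD, where HET means were 1.22, 1.32 and 1.14%. The other 2 WT embryos read 1.09 and 1.28% in HoxB, 1.07 and 1.46% in HoxC and 1.10 and 1.19% in HoxD. HET means fell between these values. HET was not tested against WT within a diet.

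The gain was uneven along the clusters. In 1 kb tiles, 159 Hox tiles held at least 3 shared CpGs. Of these, 107 differed between KO and WT by under 1 point either way and 22 were at least 2 points higher in KO. The lowest tile was -1.30 points. With all 159 in the quasi-binomial test, 52 (32.7%) were higher in KO at an adjusted p below 0.05 and 0 lower, against 31.9% of all 74133 tiles higher, so the share of Hox tiles stood near that of all tiles. The main test kept tiles whose levels had an SD of at least 2 points over the embryos compared, a spread that includes the KO minus WT difference itself, and so held 24 Hox tiles of 50879. By that test 1 Hox tile was called, with an adjusted p below 0.05 and at least 10 points, against 14.3% of all tested tiles called higher.

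That tile lies in Hoxa7 (chr6:52220001-52221000) and holds the 10 CpGs of the printed stretch. They lie 1005 to 1185 bases downstream of the GENCODE start of Hoxa7, in an intron of the longer gene model, and 2096 to 2276 bases upstream of the RefSeq start. WT embryos had 4.17, 10.2 and 20% (lowest, median, highest of 9), HET embryos 5.15, 11.05 and 14.7% (of 10), and KO embryos 9.65, 25.01 and 48.6% (of 16). The lowest KO library was again KO replicate 1 of 30 ppm, and 12 of 16 KO embryos exceeded every WT embryo. The difference averaged within diets was 13.5 points, from 12.1% in WT to 25.6% in KO (quasi-binomial adjusted p = 2.14e-05). Per embryo this tile rested on 60 to 894 reads. By diet the difference was 16.3 points on 30 ppm, 10.2 on 3 ppm and 13.9 on 0.1 ppm. Without the 3 libraries it was 20.8 points on 30 ppm (2 WT and 5 KO embryos) and 11.3 points on 0.1 ppm (1 WT and 5 KO). With tiles shifted by 500 bp the tile that holds these CpGs and their neighbours differed by 7.61 points, and with a coverage of at least 10 reads it did not stay among the tiles tested.

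**Figure D4:**
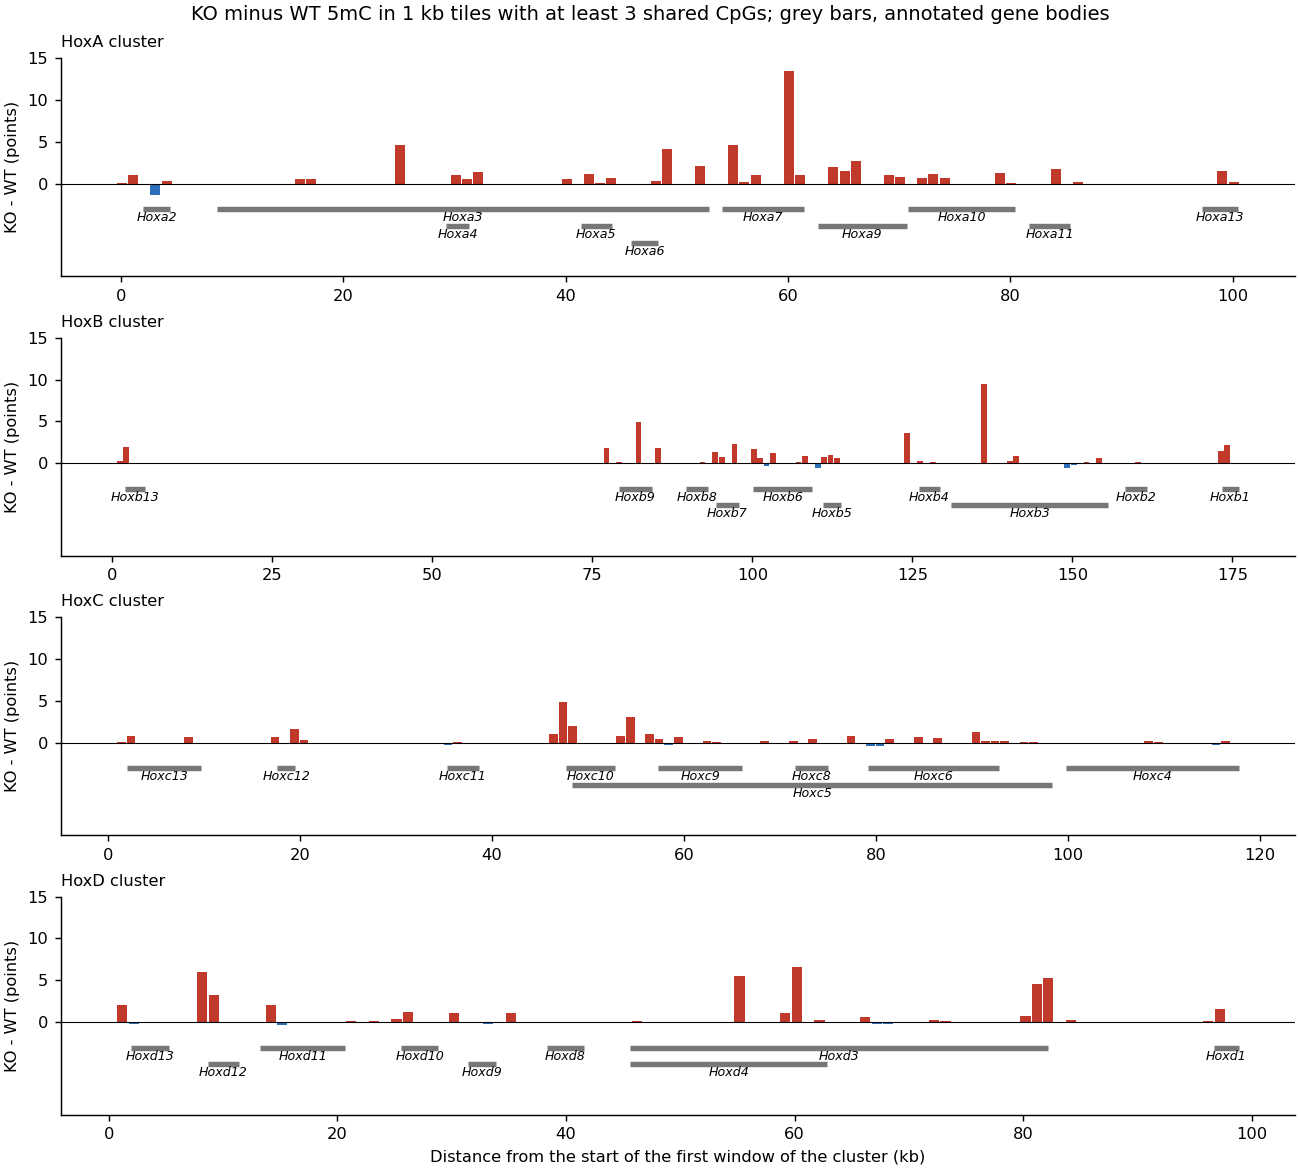
KO minus WT difference in 5mC (points, y axis) of each 1 kb tile with at least 3 shared CpGs along the 4 clusters (x axis, kb from the start of the first window), red above 0 and blue below, with annotated gene bodies in grey. Most bars are near 0, and the tallest stand in Hoxa7 (13.5 points) and Hoxb3 (9.42 points).

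Some tiles under 10 points are named here after their values were seen. A tile in an intron of Hoxb3, a hindbrain and neck gene, went from 6.97 to 16.4% (9.42 points, quasi-binomial adjusted p = 1.63e-05) over 4 CpGs. Tiles in the shared Hoxd3 and Hoxd4 introns rose by 6.64 points (3.22 to 9.85%, adjusted p = 7.36e-05) and 5.53 points (9.63 to 15.2%, adjusted p = 0.00167). The tile before the start of Hoxd12 rose by 5.97 points (2.69 to 8.66%, quasi-binomial adjusted p = 1e-06), and the tile over the start of Hoxc10 by 4.87 points (3.39 to 8.25%, adjusted p = 6e-07). The WT maximum was passed by 14 of 16 KO embryos at Hoxd12 and by 15 at Hoxc10.

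At single CpGs, 27 of the 2571 (1.05%) were at least 10 points higher in KO and 0 were at least 10 points lower. Over all shared autosomal CpGs 7.43% were at least 10 points higher. Of the 27, 8 lay in HoxA, 6 in HoxB, 4 in HoxC and 9 in HoxD, and 8 lay within 1 kb of an annotated start, where 1191 of the 2571 CpGs lie. In the Hoxa7 stretch the CpG at position 52220809 went from 11.6% in WT to 34.8% in KO, that at 52220727 from 18.5 to 40.4% and that at 52220716 from 23.7 to 43.71%. The other 7 CpGs of that stretch were higher in KO by 4.86 to 17.0 points. In the Hoxd12 stretch the gain lay at the 5′ end: the CpG at 74674843 (-170 bases from the start) went from 7.26 to 21.8%, that at 74674722 from 3.20 to 13.4% and that at 74674806 from 4.39 to 12.6%, while the CpG at -37 bases read 0.573 and 1.19%. In the Hoxc6 stretch the pooled level was 1.69% in WT and 1.30% in KO.

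**Figure D5:**
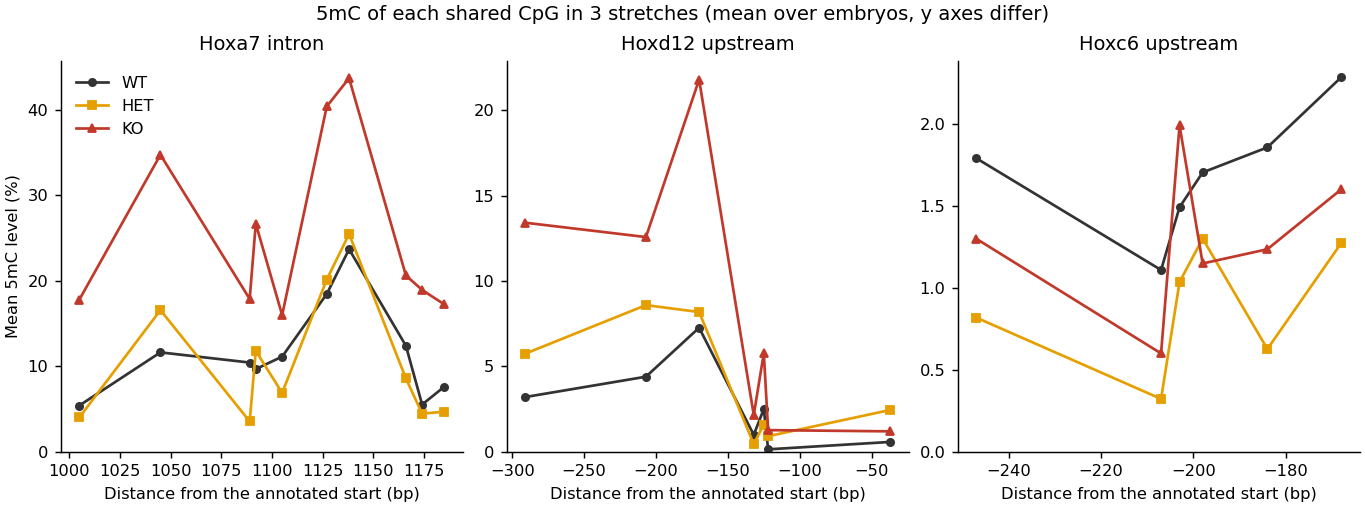
Mean 5mC level (percent, y axes differ) of each CpG measured in all 35 embryos, against its distance from the annotated start (bp), in the Hoxa7, Hoxd12 and Hoxc6 stretches, for WT (black circles), HET (orange squares) and KO (red triangles). KO lies above WT at all 10 Hoxa7 CpGs, most clearly at 3 of the 7 Hoxd12 CpGs, and within 1 point of WT throughout Hoxc6.

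Sites with some 5mC in HET embryos, which entered neither mean, differed most between KO and WT. The 1478 CpGs under 1% in HET differed by 0.217 points on average, the 326 CpGs at 2 to 5% by 2.03 points, the 52 CpGs at 5 to 10% by 5.32 points, and the 26 CpGs at 10% or more by 12.4 points (15.4% in WT, 27.6% in KO by simple means). These are descriptions over CpGs of the same embryos, without a test.

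Within 1 kb of the annotated gene start, 32 members had at least 5 shared CpGs. Of these 13 were higher in KO and 0 lower, as against 28.8% of all 12043 such promoter windows called higher (quasi-binomial test). The largest promoter differences were in Hoxc10 (2.80 to 6.86%, 4.06 points), Hoxd12 (2.78 to 6.405%, 3.62 points) and Hoxc5 (2.27 to 4.96%, 2.70 points), whose adjusted p were 1.96e-08, 4.93e-09 and 3.6e-07. The annotated starts of Hoxc10 (position 102966796) and Hoxc5 (102967443) lie close together. Their promoter windows overlap, so these are not separate gains. The Hoxd12 promoter window holds the same 48 CpGs as its gene window, and that of Hoxd1 the same 62. Their promoter values are thus not separate measurements. The Hoxd3 and Hoxd4 promoter windows share the same 37 CpGs and count as separate members here. The promoters of Hoxd8 (0.793 and 0.802%), Hoxd9 (0.720 and 0.838%) and Hoxb9 (0.813 and 0.915%) did not pass.

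Within diets, the KO effect was called in 16 members on 3 ppm, 12 on 0.1 ppm and 0 on 30 ppm, each with 0 lower. Over all windows 18.4%, 13.1% and 0.00646% were called higher. On both 3 and 0.1 ppm 9 members were called (23.7%, against 9.3% of all windows called higher on both): Hoxa3, Hoxa4, Hoxa7, Hoxb7, Hoxb8, Hoxc5, Hoxc10, Hoxd1 and Hoxd12. On 30 ppm, 13 members had an unadjusted p below 0.05 (34.2%, against 15.4% of all windows), and limma called 0 members and 0% of all windows, with 7 members (18.4%) at that p against 31.3% of all windows. The 30 ppm comparison holds 2 of the libraries that went against their labels. Without them 16 members were called there, with 24.1% of all windows called. Without the doubted WT library of 0.1 ppm, which leaves 1 WT embryo assumed to vary like the others, 4 members were called on 0.1 ppm with 13.1% of all windows. With litter as a block, 5 were called on 0.1 ppm, with 8.91% of all windows.

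The difference of Hoxd12 was 1.86 points on 30 ppm, from 2.95% ± 0.872 (SD, n = 3) in WT to 4.80% ± 1.22 (n = 6) in KO. On 3 ppm KO embryos reached 6.82% ± 0.702 (n = 5) against 2.57% ± 0.421 (n = 4), and on 0.1 ppm 7.60% ± 1.04 (n = 5) against 2.84% ± 0.256 (n = 2). Hoxc10 in KO had 5.57% ± 1.30 (SD, n = 6) at 30 ppm, then 5.86% ± 0.273 (n = 5) at 3 ppm and 7.68% ± 0.651 (n = 5) at 0.1 ppm. Its WT means were 3.18% ± 0.839 (n = 3) at 30 ppm, 3.07% ± 0.441 (n = 4) at 3 ppm and 2.88% ± 0.542 (n = 2) at 0.1 ppm. Without the 3 libraries, Hoxd12 on 30 ppm went from 2.49% ± 0.519 (SD, n = 2) in WT to 5.22% ± 0.723 (n = 5) in KO, a difference of 2.74 points. Hoxc10 on 30 ppm then went from 2.83% ± 0.819 (n = 2) to 5.99% ± 0.891 (n = 5). With or without these libraries, Hoxd12 had its lowest KO mean at 30 ppm and Hoxc10 its highest at 0.1 ppm.

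Whether the KO effect itself depended on diet was tested as an interaction. By the quasi-binomial test 0 members and 0% of all windows were called for 30 against 3 ppm, with 0 members at an unadjusted p below 0.05 against 2.92% of all windows. By limma 0 members and 0% of all windows were called, with 1 member (2.63%) at that p against 6.38% of all windows. For 0.1 against 3 ppm 0 members were likewise called, again with 0% of all windows, and 3 (7.89%, against 3.63% of all windows) had an unadjusted p below 0.05. Limma also called 0 members and 0% of all windows, and gave 3 members (7.89%) that p against 4.17% of all windows. By the quasi-binomial test these were Hoxc5, Hoxc6 and Hoxc10. The Hoxc6 window lies inside that of Hoxc5 and the Hoxc10 window overlaps it, so the share counts shared CpGs more than once. The lowest p was that of Hoxc5 (0.984 points, p = 0.000624 from the quasi-binomial fit, adjusted p = 0.976), whose KO minus WT difference was 0.620 points on 3 ppm and 1.60 points on 0.1 ppm.

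Diet alone called no member. Between 30 and 3 ppm, and between 0.1 and 3 ppm, WT embryos gave 0 called members and 0 at an unadjusted p below 0.05 by the quasi-binomial test, and 0% of all windows were called, with 0.407% and 3.5% of all windows at that p. By limma 0 members and 0% of all windows were called. In the first comparison 0 members had that p by limma, against 3.4% of all windows, and in the second 2 (5.26%, against 6.18% of all windows). Among KO embryos 0 members and 0% of all windows were called between 30 and 3 ppm by the quasi-binomial test. Hoxd12 alone (2.63% of members, against 5.98% of all windows) had an unadjusted p below 0.05 (4.80 and 6.82%, p = 0.00937 from the quasi-binomial fit, adjusted p = 0.806). There limma called 0 members and 0% of all windows, with 1 member (2.63%) at that p against 7.29% of all windows. Between 0.1 and 3 ppm in KO 0 members and 0% of all windows were called by the quasi-binomial test, and 8 members (21.1%, against 4.75% of all windows) had such a p. Limma called 0% of all windows and 0 members, with 8 members (21.1%) at that p against 4.93% of all windows. Of the 8 by the quasi-binomial test, Hoxa7, Hoxa9, Hoxa10, Hoxc5, Hoxc6 and Hoxc10 had higher and Hoxb3 and Hoxd8 lower levels on 0.1 ppm. The Hoxa9 window overlaps those of Hoxa7 and Hoxa10, and the Hoxc5 window those of Hoxc6 and Hoxc10, so the 8 are not separate. The lowest p was again that of Hoxc5, at 2.74% on 0.1 ppm and 1.98% on 3 ppm (p = 0.000477 from the quasi-binomial fit, adjusted p = 0.859). The comparisons with 3 ppm share its embryos, so they are not independent of each other. Diet was given to the dam, so embryos of a litter shared it. These tests and the interaction tests counted embryos, some of them littermates, as independent and held no litter term. Their p-values therefore do not measure the spread among litters.

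In HET brains 0 members and 0% of all windows were called against WT over all diets by the quasi-binomial test, and 0 members had an unadjusted p below 0.05, against 6.33% of all windows (limma: 0 called, with 3.03% of all windows called, and 2 below 0.05, 5.26% against 22.3% of all windows). The median difference of the members was 0.0656 points, with 23 of 38 above 0, against 0.570 points over all windows. Without the 3 libraries 0 members were called while 1.78% of all windows were.

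KO embryos labelled with a neural tube defect (NTD, n = 5) were set against KO embryos labelled normal (n = 7), with diet in the fit. The 4 KO embryos labelled inHB were left out. No NTD embryo shared a litter with a normal one, so phenotype cannot be told apart from litter. Littermates with the same phenotype were counted as separate embryos. By the quasi-binomial test 0 members and 0% of all windows were called, and 2 members (5.26%, against 3.38% of all windows) had an unadjusted p below 0.05. Limma likewise called 0 members and 0% of all windows, with 2 members (5.26%) at that p against 7.09% of all windows. By the quasi-binomial test the 2 were Hoxa7 (3.91% with NTD, 5.10% normal, p = 0.0424 from the quasi-binomial fit) and Hoxc5 (2.10 and 2.45%, p = 0.0235), each with an adjusted p of 1.

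Genes that act with or beside the Hox genes were described over all diets by the same test, which called 31.2% of all windows higher. Of 12 ParaHox and cluster-linked homeobox genes, 5 were higher in KO and 0 lower: the largest were Dlx4 (1.68 to 4.09%, adjusted p = 1.28e-05), Dlx3 (1.71 to 3.04%, adjusted p = 8.25e-08) and Evx1, which neighbours HoxA (1.67 to 2.87%, adjusted p = 6.16e-05). Of 13 upstream regulators of Hox expression 7 were higher and 0 lower, among them Cdx1, a caudal-type homeobox activator (18.7 to 26.8%, adjusted p = 5.18e-06), the retinoic acid hydroxylase gene Cyp26c1 (5.07 to 8.39%, adjusted p = 9.47e-05) and the hindbrain regulator Egr2 (1.79 to 4.42%, adjusted p = 6.75e-07). Of 9 TALE cofactors, the Pbx, Meis and Pknox partners of Hox proteins, 0 were called, 3 had an unadjusted p below 0.05 by the quasi-binomial test, against 39.3% of all windows, and their WT levels had a median of 11.9%.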

How the data were processed

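Oxidative bisulfite libraries by reduced representation (MspI and TaqI digestion) were made from single E11.5 brains. Per the labels and methods the authors trimmed reads with Trim Galore 0.6.10, aligned them to mm10 with Bismark 0.24.1 and removed duplicates by UMI. The deposited files give, for each CpG, the methylated fraction and the read count, with positions counted from 0 (1 was added). How strands were joined is not given in the sources used here. The authors' called regions were not used.

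Fraction times count gave methylated reads. CpGs with 5 or more reads in each of the 35 embryos were summed over GENCODE vM21 windows (gene body, 2 kb flanks, at least 5 CpGs) and 1 kb tiles (at least 3 CpGs, SD of at least 2 points). A quasi-binomial model with limma-type moderated dispersion (Python 3.11.15, scipy 1.17.1) was fitted per comparison over all windows or tiles, with diet as covariate where diets were joined, and Benjamini-Hochberg adjustment. Windows were called at an adjusted p below 0.05, tiles also at 10 points. Mean coverage was 10.9 to 61.5 reads per CpG and library. The fit was tested on simulated data. Where embryos keep the same spread whatever their depth, its p-values came out somewhat too small in the simulation.

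In each cluster the 2 members with the largest and the 1 with the smallest KO minus WT difference were named, besides called tiles, the lowest p where nothing was called, and up to 3 called genes per list. Some results of the gene lists are not reported here. Members and lists were chosen with earlier results of these data known. Alternatives were coverage, each embryo's own CpGs, limma 3.58.1 with equal CpG weights, pooled dispersion, other windows, leaving out embryos, and litter as a block. Litters come from the titles: deviations from group means correlated with a median of 0.0602 over 35 same-litter pairs of embryos of different genotype and of -0.0177 over 99 pairs from different litters of one diet.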

Additional observations from a re-analysis of the deposited data

Results flagged for a closer look

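Among 85 groups of 4 to 6 embryos (the 4 clusters, 12 named members and the Hoxa7 tile), 6 held an embryo whose gap to the nearest other was large for the range of its group. About 1 group in 20 is flagged this way by chance. KO replicate 1 of 30 ppm, whose Tet1 level went against its label, had a HoxD level of 1.12%, below the 1.57 to 1.69% of the other 5 KO embryos. At 0.1 ppm, KO replicate 3 had 9.40% in Hoxd12, above the 6.86 to 7.44% of the others, and 2.46% in Hoxa2 against 1.20 to 1.54%. KO replicate 1 of 0.1 ppm had 4.74% in Hoxb1 against 3.31 to 3.69%. HET replicate 4 of 30 ppm had 1.10% in HoxB against 1.22 to 1.27%, and HET replicate 5 of 30 ppm 1.55% in HoxC against 1.21 to 1.29%. What set these embryos apart was not tested.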

How the results depend on the processing

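Under other settings 106 values of counts and cluster differences kept their direction and size range and 18 moved. The 106 include the counts of the diet, HET, interaction and NTD comparisons, which were 0 and stayed at 0. None of these comparisons gained a called member. KO vs WT counts of called members (28 over all diets, 16 on 3 ppm, 12 on 0.1 ppm, 0 on 30 ppm) changed as follows. A minimum of 5 points left 0 over all diets (13.8% of all windows), 0 on 3 ppm (12.5%) and 0 on 0.1 ppm (9.51%). Without the libraries that went against their labels there were 16 on 30 ppm (24.1% of all windows) and 4 on 0.1 ppm (13.1%). A single fit with all 9 groups gave 7 on 30 ppm (10.2% of all windows). Windows of 1 kb either side of the start gave, of 32 members, 2 on 30 ppm (4.69% of all windows), 10 on 3 ppm (23.5%) and 13 over all diets (29.0%). CpGs of each embryo alone gave 8 on 3 ppm (8.79%) and 4 on 0.1 ppm (6.31%). With litter as a replicate block 5 were called on 0.1 ppm (8.91%), and the block moved no other count beyond 1.5 times. Leaving out 1 embryo gave 0 to 7 on 30 ppm, 9 to 17 on 3 ppm and 4 to 11 on 0.1 ppm. On 30 ppm the count was 7 without the library labelled KO replicate 1 (7.35% of all windows) and 2 without that labelled WT replicate 2 (12.5%). On 3 ppm it was 9 without KO replicate 2 (15%) and 10 without KO replicate 5 (15.5%). On 0.1 ppm it was 4 without WT replicate 1 (5.88%), 4 without WT replicate 2 (13.1%) and 7 without KO replicate 1 (10.7%). In the diet, interaction and NTD comparisons it stayed at 0. The comparisons over all diets were not refitted without single embryos.

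The called Hoxa7 tile gave 0 called tiles at a coverage of at least 10 reads, at 20 points and with tiles shifted by 500 bp. The cluster difference of HoxA became 0.697 points at that coverage and 1.01 with CpGs weighted equally, and that of HoxD 0.667 with each embryo's own CpGs. The Hoxa7 difference of 2.39 points became 0.945 at 10 reads and 1.11 around its start. Hoxa9 fell from 1.30 to 0.432 around its start and was not called. Hoxc5 became 2.70 around its start, in a window that overlaps the one around the Hoxc10 start, and Hoxb13 2.89 in the gene body alone. Differences near 0 changed sign: Hoxd8 to 0.00889 around its start, 0.00593 at 10 reads and 0.00326 with each embryo's own CpGs, and Hoxb2 to 0.00469 at 10 reads. The cause of these changes was not tested. Single CpGs can rest on as few as 5 reads in an embryo, where a single read moves the level by many points. Only 25.4% of Hox CpGs were measured, and WT on 0.1 ppm had 2 embryos.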
